A study of Mus musculus with 4 samples.

Results

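Elf5, Ehf, Elf3 and Spdef are transcription factors of the ETS family whose expression is largely restricted to epithelia. They are described here through chromatin accessibility in mouse mammary epithelium: 4 of the 21883 genes counted, chosen by name and not by any measured value. For each gene the reads over its span with 2 kb on either side, the regions that the authors listed within 100 kb, the co-accessibility scores of those regions and the motif column that carries the gene's name were examined by class of nucleus and by library.

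The assay was single-nucleus ATAC-seq, in which the Tn5 transposase cuts open chromatin and barcodes assign each read to a nucleus. All samples came from mice of the outbred CD1 strain labelled as wild type. The sort kept lineage-negative, EpCAM-positive cells of the mammary tissue of fetuses at embryonic day 18, the fetal group, and of adults at 8 weeks, the adult group. Each stage had 2 libraries that the titles call biological replicates, and no further treatment, allele or pooling of animals was named. The authors sorted all kept nuclei into 14 numbered classes that carry no names.

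ETS factors recognise DNA with a GGA core, for many members GGAA, through a conserved winged helix-turn-helix domain. Many members share nearly the same motif. Elf5 is known for its part in the alveolar fate of luminal progenitors and in milk production. Ehf and Elf3 are close relatives of Elf5 that act in the differentiation of many epithelia, and Spdef is known from secretory and hormone-responsive epithelial cells. The mammary epithelium consists of a basal layer and a luminal layer, and the luminal layer holds progenitors and mature, hormone-sensing cells.

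On the build GRCm38, to which the authors' mm10 positions correspond, Elf5 and Ehf are neighbours on chromosome 2. Ehf spans chr2:103263431-103303275 and Elf5 spans chr2:103412098-103450989, with 108822 bases between the spans. Elf3 spans chr1:135253574-135258472 and Spdef spans chr17:27714446-27731003. The counted window of Elf5 overlapped that of Cat, the catalase gene, and the window of Spdef overlapped that of Pacsin1, so a read in the overlap could not be assigned to either gene alone. The RefSeq promoter table for GRCm38.p6 held 4 start sites for 3 of the genes. The 250 bases upstream of each are shown because the start sites differed sharply in accessibility, with each GGAA core, or TTCC where it lies on the opposite strand, in capitals.
Elf5, upstream start site: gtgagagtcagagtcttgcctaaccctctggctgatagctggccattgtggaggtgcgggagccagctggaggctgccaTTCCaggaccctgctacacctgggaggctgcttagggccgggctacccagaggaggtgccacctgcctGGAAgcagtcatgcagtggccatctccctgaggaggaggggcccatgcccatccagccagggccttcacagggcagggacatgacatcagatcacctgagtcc
Elf5, downstream start site: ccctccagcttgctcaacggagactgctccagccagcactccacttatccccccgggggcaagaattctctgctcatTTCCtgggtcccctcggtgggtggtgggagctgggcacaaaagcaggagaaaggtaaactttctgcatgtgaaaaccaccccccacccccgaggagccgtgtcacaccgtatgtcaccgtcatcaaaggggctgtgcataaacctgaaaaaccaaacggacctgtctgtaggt
Elf3: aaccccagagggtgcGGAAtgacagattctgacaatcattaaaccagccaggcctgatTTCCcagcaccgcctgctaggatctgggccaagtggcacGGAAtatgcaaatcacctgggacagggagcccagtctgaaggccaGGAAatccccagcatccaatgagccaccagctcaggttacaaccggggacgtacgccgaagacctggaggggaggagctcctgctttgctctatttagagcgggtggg
Spdef: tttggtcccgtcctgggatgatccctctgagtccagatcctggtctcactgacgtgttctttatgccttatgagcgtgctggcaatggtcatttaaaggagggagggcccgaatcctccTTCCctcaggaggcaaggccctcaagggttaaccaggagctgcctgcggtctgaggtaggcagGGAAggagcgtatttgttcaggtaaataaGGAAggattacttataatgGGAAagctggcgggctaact

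These 4 windows lie at chr2:103411848-103412097 and chr2:103423818-103424067 on the plus strand for Elf5, and at chr1:135258473-135258722 for Elf3 and chr17:27728952-27729201 for Spdef on the minus strand. Counted on both strands, GGAA occurred 4 times in the Elf3 window, 4 times in the Spdef window, 2 times upstream of the upstream Elf5 start and 1 time upstream of the downstream Elf5 start. Of 32851 such windows in the table, 93.4% held GGAA, with a median of 3 matches, and 33.4% held at least 4. The longer core GGAAG, which contains GGAA, was found in the upstream Elf5 window and the Spdef window and in 64.1% of all windows. GGAAGT was in none of the 4 windows and in 19.7% of all windows. Reads in the 300 bases from 250 before to 50 after each start site separated the start sites. The upstream Elf5 start had 0 and 6 fetal and 9 and 3 adult reads, whereas the downstream Elf5 start had 46 and 65 fetal and 61 and 83 adult reads. The Elf3 start had 141 and 322 fetal and 353 and 455 adult reads. The Spdef start had 2 and 11 fetal and 39 and 45 adult reads, too few in the fetal libraries for the classes to be compared there.

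The files held 7846 kept nuclei, 882 and 1695 in the fetal and 2465 and 2804 in the adult libraries, and 0 barcodes were shared between libraries. Reads of kept nuclei ranged from 6028168 to 19304830 per library, and the median nucleus had 4420 to 7488 reads. A marker gene was counted as raised in a class where its log2 level exceeded the mean of the other classes by 0.5 or more. By this measure adult classes 1 and 8 were basal-like (8 of 8 basal markers raised in each), adult classes 3 and 7 luminal progenitor-like (5 of 6 in each) and adult classes 2 and 11 mature luminal-like (6 and 5 of 7). Fetal class 4 was basal-like (6 of 8), fetal class 9 luminal progenitor-like (4 of 6), and fetal class 5 had 3 of 5 luminal and 3 of 6 luminal progenitor markers raised. Class 6 occurred at both stages and had 7 of 7 stromal, 3 of 6 immune and 2 of 4 endothelial markers raised, so it is called stromal-like with markers of other cells present. The summed level of the 7 stromal markers was 181 and 190 CPM (reads in the feature scaled to a common total of reads in all gene spans) in the fetal and 150 and 156 in the adult libraries, that of the 4 endothelial markers 137 to 155, and that of the 6 immune markers 43.7 to 61.3. The lists that moved most with stage were epithelial. The 7 mature luminal markers summed to 442 and 503 CPM in the fetus against 859 and 894 in the adult, and the 5 luminal markers to 346 and 331 against 504 and 430, both without overlap. The 8 basal markers (302 to 390) and the 6 luminal progenitor markers (224 to 283) overlapped between stages. No marker gene was at 0 reads in any library, and the part of these marker differences in the stage differences below was not tested. A class made by the authors is a cluster of these same nuclei, so differences between classes of 1 stage carry no test. The stage tests within a lineage below also compare different classes. Their p-values take no account of the clustering.

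Per kilobase of counted window, Elf3 was the most accessible of the 4 genes in every library. It had 5.81 and 5.20 CPM per kilobase in the fetal and 6.63 and 5.97 in the adult libraries, between the 94.4 and the 96.1 percentile of all genes. Ehf had 2.61, 3.10, 3.10 and 2.70 in the same order, Spdef 1.95, 2.27, 2.41 and 1.90, and Elf5 1.25, 1.26, 1.08 and 1.05. The ranges of the 4 genes did not overlap across the libraries, and Elf5 lay close to the middle of all genes, between the 55.4 and the 61.1 percentile. The counted window was 8.9 kb for Elf3, 20.6 for Spdef, 42.9 for Elf5 and 43.8 for Ehf. Reads around the Elf3 start site, counted as above, were 141 of 239, 322 of 543, 353 of 623 and 455 of 759. For Spdef they were 2 of 185, 11 of 547, 39 of 523 and 45 of 558. The rank per kilobase thus sets a short window with most reads at its start site against longer windows. In the authors' deposited gene accessibility score, which pools all nuclei without naming libraries, Ehf was above 0 in 26.3% and Elf3 in 20.1% of nuclei. Spdef was above 0 in 5.38% and Elf5 in 4.68%, both below the median gene of that table at 6.79%.

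Elf5 was most accessible in the adult luminal progenitor-like nuclei. Reads over its span reached 92.8 ± 0.06 CPM (SD, n = 2 libraries) in adult class 3, above both libraries of every other class, and 72.3 ± 4.7 in adult class 7. The fetal classes 5 and 9 followed at 66.3 ± 17.2 and 64.7 ± 3.4, and the libraries of class 5 overlapped those of both class 7 and class 9. Mature luminal-like classes 2 and 11 stood at 33.7 ± 0.84 and 29.1 ± 0.59, next to fetal basal-like class 4 at 34.4 ± 1.5. The adult basal-like classes 8 and 1 had 20.9 ± 6.2 and 14.9 ± 8.4. Their libraries overlapped those of the adult nuclei of the stromal-like class 6, at 16.6 ± 2.2.

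Ehf showed the widest range of the 4 genes in CPM, a measure not scaled for the length of the counted window. Its span had 237 ± 23.3 CPM in adult class 3 and 230 ± 12.3 in adult class 7, which overlapped each other and lay above both libraries of all other classes. Fetal classes 5 and 9 had 170 ± 23.6 and 161 ± 17.4. Adult classes 2 and 11 had 96.9 ± 4.5 and 83.7 ± 10.6, fetal class 4 had 53.9 ± 0.06, and adult classes 1 and 8 had 41.6 ± 6.2 and 35.7 ± 3.7. Class 6 was lowest, at 7.53 ± 2.2 in its adult and 3.79 ± 5.4 in its fetal nuclei. The level in the fetal nuclei of class 6 rests on 0 and 2 reads in the libraries, so no fold over it is given. In the basal-like classes of both stages, all libraries still lay above those of class 6 for Ehf.

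Elf3 varied least among the epithelial classes, over a window in which most reads lay around the start site, as given above. Adult classes 10, 7 and 2 had 73.6 ± 12.7, 68.6 ± 5.2 and 65.6 ± 2.1 CPM. The next 7 class means lay between 45.1 and 54.3 and each overlapped its neighbour in rank. They included fetal classes 9 and 5, at 54.3 ± 0.004 and 53.0 ± 4.7, and the adult basal-like class 1, at 51.8 ± 10.7. Within each adult lineage the classes did not overlap. Progenitor-like class 3 had 49.6 ± 8.4, below class 7, and mature luminal-like class 11 had 45.1 ± 9.1, below class 2. Basal-like class 8 had 36.8 ± 5.4, below class 1. Fetal class 4 was lowest of the named epithelial classes at 31.7 ± 7.4, and class 6 had 8.98 ± 12.7 in its adult and 27.9 ± 12.6 in its fetal nuclei, the latter overlapping fetal class 4. The Elf3 promoter region itself, chr1:135257970-135258969, had 143 and 111 CPM in promoter regions in adult basal-like, 125 and 133 in luminal progenitor-like and 127 and 138 in mature luminal-like nuclei. These 3 pairs of libraries overlapped.

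Spdef followed another order. Adult mature luminal-like classes 11 and 2 had 72.8 ± 10.7 and 67.2 ± 8.0 CPM over its span, and fetal class 13, left unnamed here, had 78.2 ± 48.7, with libraries at 43.8 and 113. Fetal classes 5 and 9 had 51.8 ± 1.6 and 42.2 ± 0.36, and adult progenitor-like classes 7 and 3 had 34.8 ± 0.47 and 29.1 ± 11.5. Adult basal-like classes 1 and 8 had 16.4 ± 0.06 and 11.1 ± 2.7, and class 6 had 2.99 ± 4.2 in its adult nuclei, with 18.4 and 7.59 in the libraries of its fetal nuclei, the latter overlapping the adult basal-like classes. The promoter region over the Spdef start site, chr17:27727986-27728985, had 32.4 and 46.1 CPM in promoter regions in mature luminal-like nuclei, 5.02 and 11.5 in progenitor-like nuclei and 0 in both libraries of the adult basal-like nuclei. The same order held in the 300-base start window, with 30 and 36, 3 and 9, and 0 and 0 reads.

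**Figure D1:**
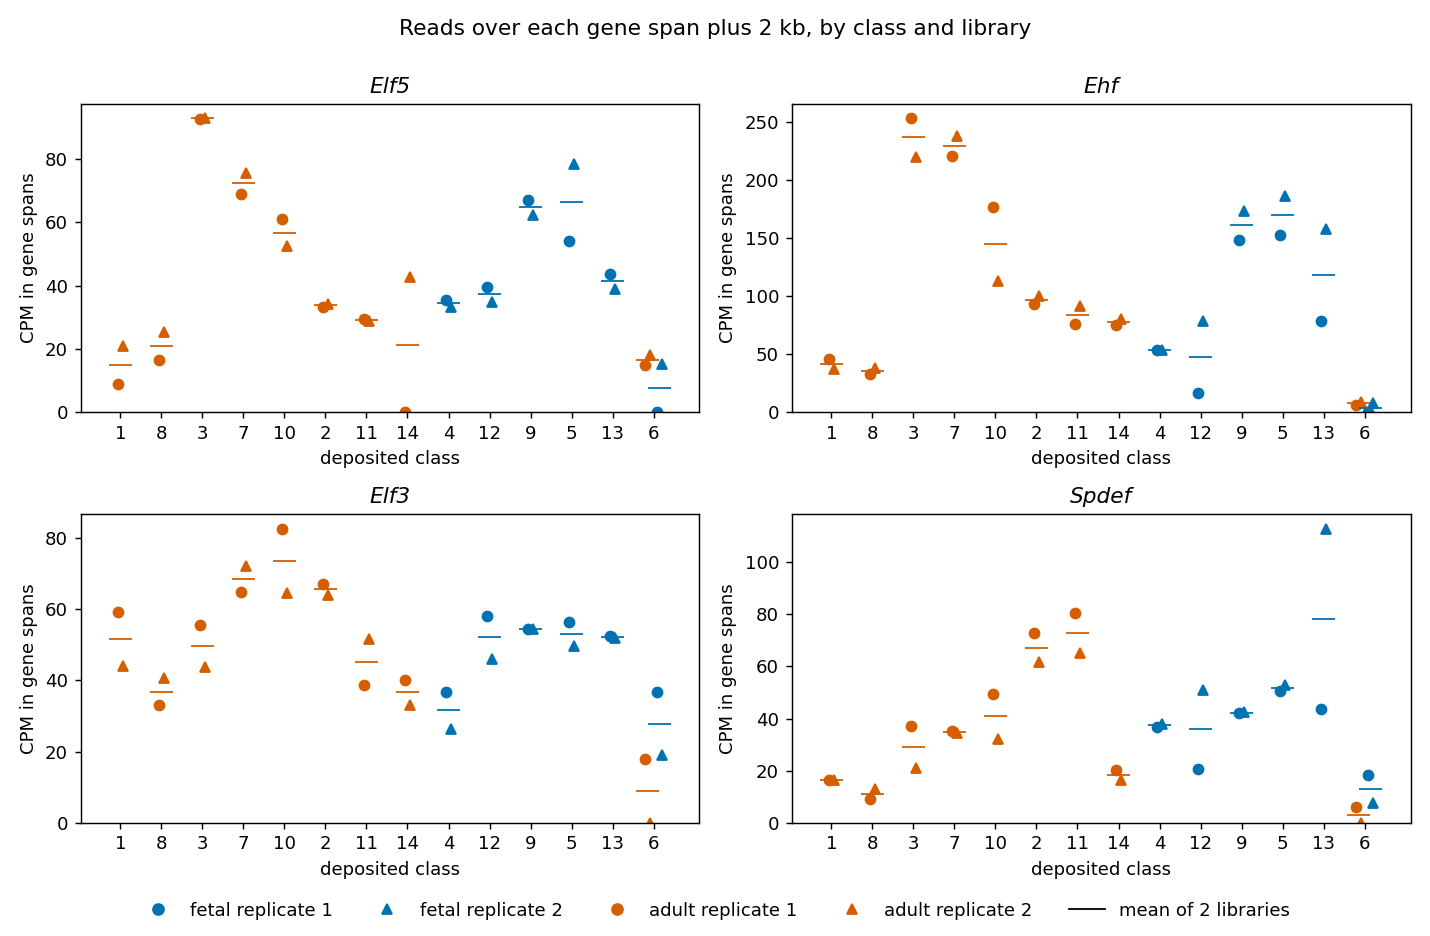
CPM in gene spans over each gene with 2 kb on either side (y axis) in each of the 14 deposited classes (x axis, adult classes first, then fetal classes, then class 6 with both stages). Points are libraries and lines their means. Elf5 and Ehf are highest in adult classes 3 and 7, and Elf3 lies between 31.7 and 73.6 in all epithelial class means. Spdef means are highest in classes 13, 11 and 2, where class 13 has libraries at 43.8 and 113 and is highest in fetal replicate 2 alone.

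Differences between class groups were taken within each library as log2 of CPM with 2 added, and counted where they reached 1, a 2-fold difference, in the same direction in both libraries. In adult luminal progenitor-like against basal-like nuclei, Elf5 (76.8 and 83.7 against 12.3 and 22.8 CPM) and Ehf (232 and 230 against 40.2 and 37.7) passed, as did 2.92% of 16978 genes in that direction. The log2 differences were 2.46 and 1.79 for Elf5 and 2.47 and 2.55 for Ehf. Spdef passed in adult replicate 1 alone, at 1.32 and 0.84, and Elf3 in neither, at 0.36 and 0.45. Against mature luminal-like nuclei the progenitor-like nuclei were again higher for Elf5, by 1.20 and 1.33, and for Ehf, by 1.35 and 1.23, where 2.62% of genes passed. Spdef passed the other way, at -1.02 and -1.11, as did 3.11% of genes. Mature luminal-like nuclei exceeded basal-like nuclei for Spdef, by 2.34 and 1.94, and for Ehf, by 1.12 and 1.31, where 5.09% of genes passed. There Elf5 passed in adult replicate 1 alone, at 1.26 and 0.46, and Elf3 in neither, at 0.34 and 0.46. Elf3 differed between the progenitor-like and mature luminal-like groups by 0.02 and -0.01. Both groups pool classes whose Elf3 libraries did not overlap, as given above.

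Fetal luminal and basal-like nuclei differed at fewer genes. Ehf was 1 of 83 genes, or 0.486% of 17092, that were at least 2-fold higher in fetal class 9 than in fetal class 4, with 149 and 173 against 53.9 and 53.8 CPM and log2 differences of 1.43 and 1.65. Elf5, at 0.88 and 0.87, and Elf3, at 0.53 and 0.99, were higher in class 9 in both libraries but fell short of 2-fold, and Spdef stood at 0.18 and 0.16. Between fetal classes 5 and 9 none of the 4 genes passed in either direction. There, 0.0648% of genes passed as higher and 0.365% as lower in class 5.

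The study's main contrast, fetal against adult, was tested on library sums with edgeR's quasi-likelihood test over 18804 genes, of which 22.2% were called at a Benjamini-Hochberg adjusted p under 0.05. None of the 4 genes was called. Elf5 had 53.5 and 54.1 CPM in the fetal and 46.4 and 45.3 in the adult libraries, groups that did not overlap, with a log2 difference of 0.23 (SE 0.13, adjusted p = 0.211). Ehf had 114 and 136 against 136 and 119, which overlapped, with a log2 difference of -0.02 (SE 0.12, adjusted p = 0.919) and a 95% interval of -0.26 to 0.22.

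Spdef had 39.8 and 46.8 fetal against 49.6 and 39.3 adult CPM, which overlapped, with a log2 difference of -0.02 (SE 0.15, adjusted p = 0.940). Elf3 had 51.4 and 46.4 against 59.1 and 53.5, which did not overlap, with a log2 difference of -0.21 (SE 0.13, adjusted p = 0.281). The Elf3 result depended on the window. Over the span without flanks the difference was -0.81 (adjusted p = 0.00342) and with 10 kb on either side it was -0.62 (adjusted p = 0.000926). The span without flanks leaves out the part of the promoter region upstream of the start site. The 10 kb window takes in chr1:135265461-135266460 and part of chr1:135267815-135268814, which are nearest to Rnpep. Both were called as higher in the adult, as given below, so this difference is not separate from theirs. In sums over whole libraries, fewer nuclei of a class and less accessibility per nucleus cannot be told apart.

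Ehf changed with stage in the luminal progenitor-like nuclei, comparing fetal class 9 with adult classes 3 and 7. It had 147 and 173 fetal against 236 and 233 adult CPM. The groups did not overlap, the level was 1.46 times higher in the adult, and the log2 difference was -0.54 (SE 0.12, adjusted p = 0.00295). Of 17372 genes in this comparison 15.8% were called, 8.04% as higher in the adult. Elf5 had 66.3 and 62.1 against 78.2 and 84.6, groups that did not overlap, with a log2 difference of -0.35 (SE 0.15, adjusted p = 0.127). Elf3, at -0.18 (SE 0.17, adjusted p = 0.504), and Spdef, at 0.37 (SE 0.20, adjusted p = 0.237), were not called.

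Spdef was called in the basal-like nuclei, comparing fetal class 4 with adult classes 1 and 8. It had 36.8 and 37.9 fetal against 13.3 and 15.1 adult CPM, from 26, 83, 16 and 43 reads. The groups did not overlap, and the fetal level was 2.59 times the adult level (log2 difference 1.37, SE 0.38, adjusted p = 0.0210). The promoter region over the Spdef start site had 0 reads in both libraries of fetal class 4, as in the adult basal-like nuclei. Of the 26 and 83 fetal reads, 10 and 45 overlapped a single region inside the span, chr17:27725400-27726399, described below. Of 16472 genes 6.16% were called, 2.98% as higher in the fetus. The Spdef call was lost without fetal replicate 2 (adjusted p = 0.141), adult replicate 1 (0.0945) or adult replicate 2 (0.0604), with a log2 difference of 1.30 to 1.49. Elf5 had 35.3 and 33.3 against 12.5 and 23.2, groups that did not overlap, with a log2 difference of 0.86 (SE 0.38, adjusted p = 0.186). Ehf, at 0.45 (SE 0.29, adjusted p = 0.417), and Elf3, at -0.59 (SE 0.32, adjusted p = 0.315), were not called. In these comparisons within a lineage, class and stage coincide, because almost every class was found at 1 stage.

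A test of whether the stage difference itself differed between the 2 lineages was added after the data had been seen. It set the fetal minus adult difference in progenitor-like nuclei against that in basal-like nuclei, with library as a block because both sums come from the same library. It called 6.07% of 17064 genes, 2.43% in the direction of a smaller progenitor-like minus basal-like gap in the fetus. Ehf, with a difference of differences of -0.94 (SE 0.25, adjusted p = 0.00609), and Elf5, at -1.20 (SE 0.35, adjusted p = 0.0174), were called in that direction. For both genes the adult progenitor-like level lay above, and the adult basal-like level below, the fetal level in the same lineage. The Ehf call was lost without fetal replicate 1 (adjusted p = 0.0504) or adult replicate 2 (0.102), and the Elf5 call without fetal replicate 1 (0.0509), fetal replicate 2 (0.139) or adult replicate 1 (0.299). Without the library block Elf5 was not called (-1.13, adjusted p = 0.0777) and Ehf was (-0.97, adjusted p = 0.0302). Spdef stood at -0.93 (SE 0.42, adjusted p = 0.204) and Elf3 at 0.45 (SE 0.34, adjusted p = 0.566).

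**Figure D2:**
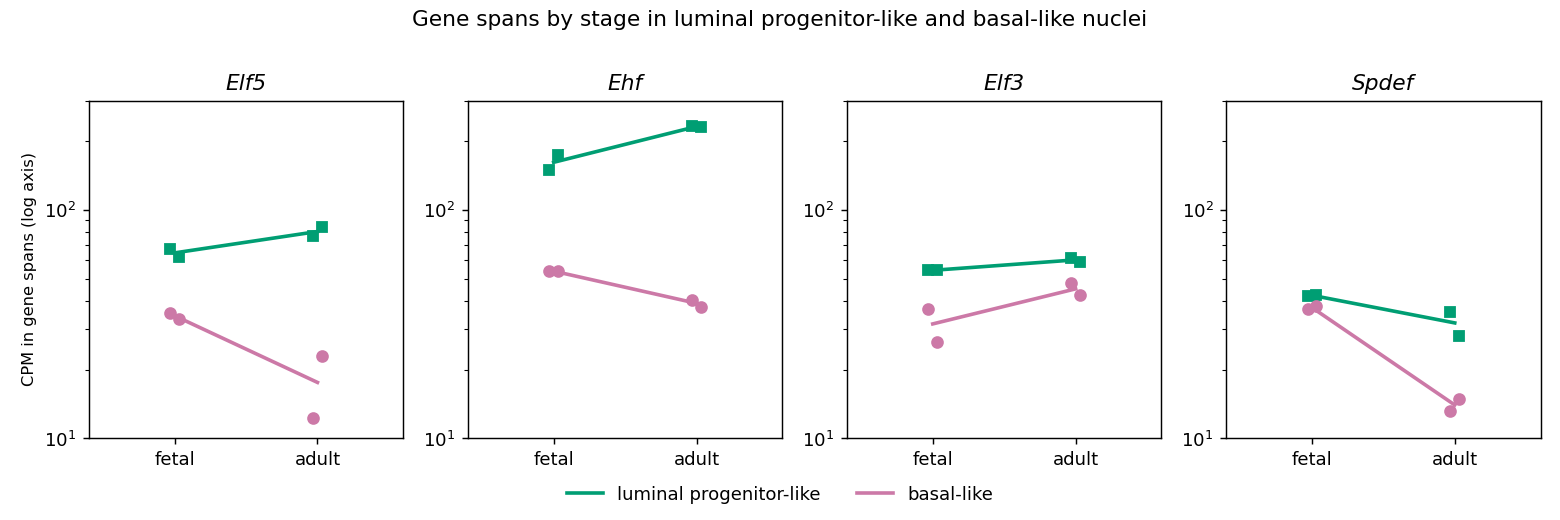
CPM over each gene span on a log axis (y axis) at the fetal and adult stage (x axis) in luminal progenitor-like nuclei (fetal class 9, adult classes 3 and 7) and basal-like nuclei (fetal class 4, adult classes 1 and 8). Points are libraries and lines join stage means; for Elf5 and Ehf the lineages lie further apart in the adult, and for Spdef the adult basal-like libraries lie lowest, at 13.1 and 14.9 before TMM scaling.

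Other genes of the ETS family were counted from a list of 22, of which all were tested over whole libraries. Of these, 6 were higher in the fetus, namely Fli1 by 0.96, Etv5 by 0.65, Elk1 by 0.62, Spi1 by 0.47, Etv1 by 0.36 and Etv6 by 0.26 on the log2 scale. The 4 higher in the adult were Ets2 (log2 difference -1.11), Gabpa (-0.56), Elk4 (-0.35) and Elf1 (-0.28). Over all genes 22.2% were called. DESeq2 called 4 of the 22, against 16.6% of all genes. The median log2 difference of the list was 0.24, against 0.01 over all genes tested. In the progenitor-like nuclei edgeR called 4 of 21 tested, against 15.8% of all genes, and DESeq2 called 2, against 8.45%. By edgeR, Fli1 at 1.08 and Etv5 at 0.42 were higher in the fetus, and Ets2 at -1.23 and Gabpa at -0.53 higher in the adult. In the basal-like nuclei 0 of 21 were called by edgeR and 0 by DESeq2, against 6.16% and 1.95% of all genes, and 5 had an unadjusted edgeR p under 0.05. Ets2 and Ehf were thus both more accessible in adult than in fetal progenitor-like nuclei, with Ets2 at 92.5 and 93.4 fetal against 200 and 235 adult CPM.

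Within 100 kb of the 4 spans the authors had listed 163 of their 164657 regions, 146 distal and 17 promoter regions, each 1000 bases long. A region within 100 kb of both Ehf and Elf5, of which there were 17, was counted under the nearer span, and with them 47 lay within that distance of Ehf and 45 of Elf5. Ehf was the nearest protein-coding gene to 36 of the 37 regions counted under it, a share that this assignment partly sets. Elf5 was nearest to 25 of 38, Spdef to 10 of 51 and Elf3 to 8 of 37. Over whole libraries 53 of 133 tested distal regions (39.8%) were called, 29 higher in the fetus and 24 higher in the adult, where 35.3% of all 122865 distal regions were called, 16.6% as higher in the fetus and 18.8% in the adult. By gene, the fetal and adult counts were 5 and 2 of 28 for Elf5, 6 and 6 of 32 for Ehf, 9 and 9 of 32 for Elf3, and 9 and 7 of 41 for Spdef. Called regions of both directions lay around each gene, and no span with 2 kb flanks was called. As the called share was close to that of all distal regions, calls of both directions are not particular to these genes. Of the 17 promoter regions 4 were called, against 21.5% of all promoter regions tested. Within progenitor-like nuclei 19 of 85 tested distal regions were called, against 21.8% of all, and within basal-like nuclei 7 of 23, against 10.8% of all. The basal-like comparison called 0 of 31100 regions without adult replicate 1, which leaves 1 adult library, with 3603 at an unadjusted p under 0.05.

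**Figure D3:**
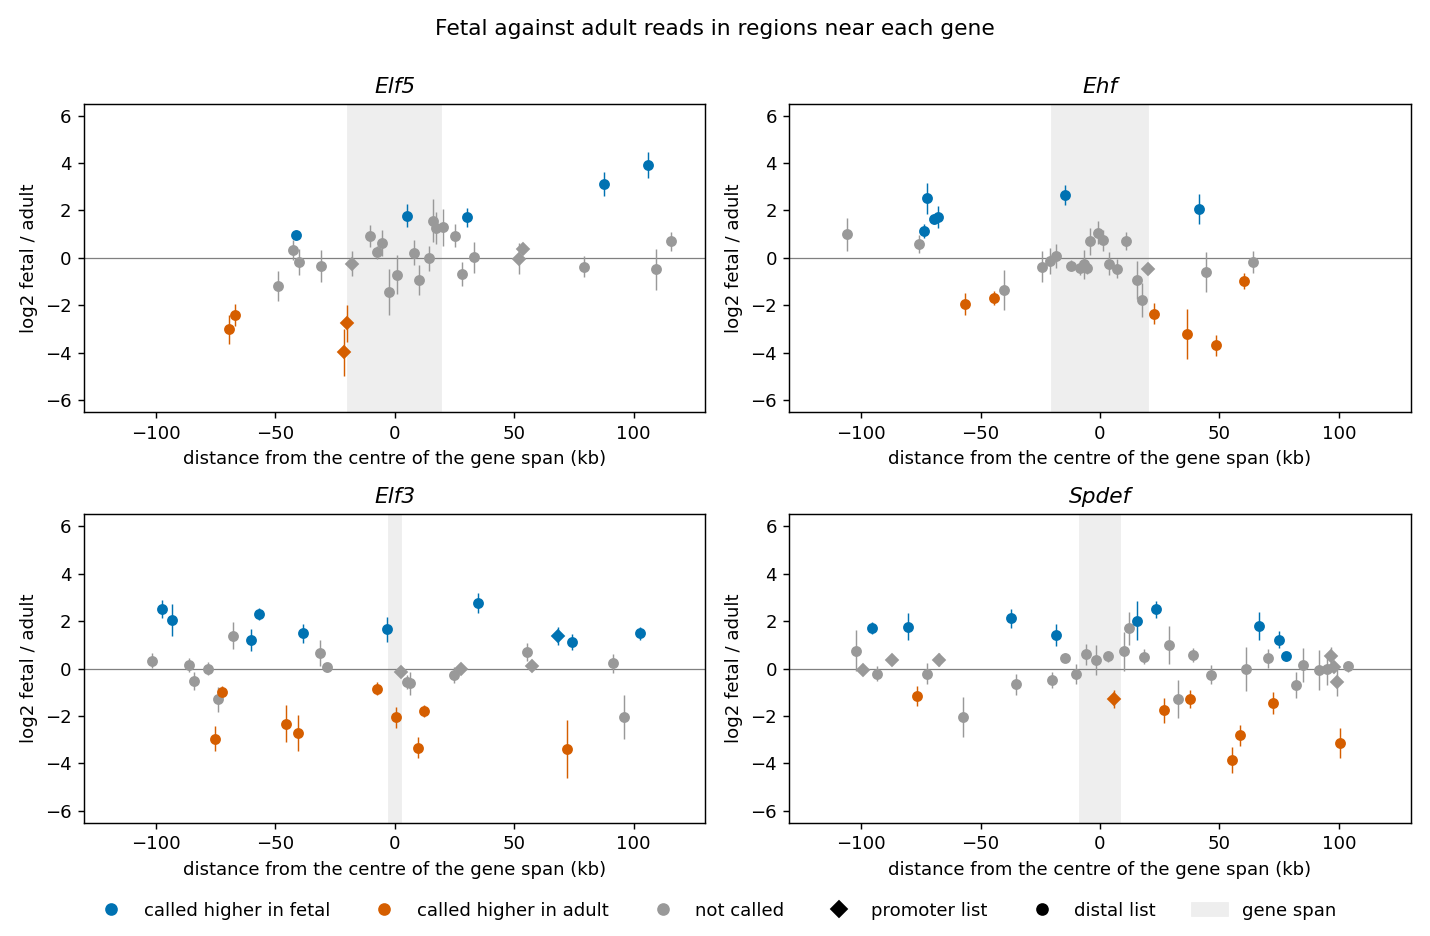
Log2 difference between fetal and adult libraries (y axis) for each tested region near the 4 genes against distance from the centre of the gene span in kb (x axis). Bars are standard errors and colours mark regions called at an adjusted p under 0.05. Of 133 tested distal regions 29 were higher in the fetus and 24 higher in the adult, against 16.6% and 18.8% of all distal regions.

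Around Elf5, the distal region with the most reads was chr2:103389800-103390799, 21.3 kb from the span. It had 61.2 and 47.6 fetal against 30.6 and 24.9 adult CPM in distal regions, groups that did not overlap (log2 difference 0.96, SE 0.21, adjusted p = 0.000407). Within the lineages it was not called, and the differences had the opposite sign, at -0.37 in progenitor-like nuclei (adjusted p = 0.287) and -0.55 in basal-like nuclei (adjusted p = 0.464). By class group it had 101 and 88.6 CPM in fetal class 5, 54.6 and 57.1 in adult progenitor-like nuclei, 56.1 and 39.0 in adult basal-like nuclei and 0 and 0.592 in adult mature luminal-like nuclei. The mature luminal-like nuclei, with 1002 and 1074 of the nuclei in the adult libraries, thus had almost no reads there.

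The region over the downstream Elf5 start site, chr2:103423445-103424444, is on the authors' distal list. It had 24.0 and 16.5 fetal against 18.4 and 14.9 adult CPM, which overlapped, and a log2 difference of 0.24 (SE 0.28, adjusted p = 0.529). It was open in adult progenitor-like nuclei, at 24.1 and 25.8, and mature luminal-like nuclei, at 19.9 and 13.3, and nearly closed in adult basal-like nuclei, at 2.88 and 0. The promoter region next to the upstream Elf5 start, chr2:103410912-103411911, had 0, 6, 27 and 33 reads in the 4 libraries. Those are 0 and 1.70 fetal against 8.18 and 7.77 adult CPM in promoter regions (log2 difference -2.76, SE 0.78, adjusted p = 0.00664). This region was named for its position, after its values were seen.

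Around Ehf, the distal region chr2:103213168-103214167, 49.3 kb from the span, was higher in the fetus in all 3 comparisons. It had 62.0 and 66.2 fetal against 21.5 and 19.9 adult CPM, without overlap (log2 difference 1.64, SE 0.21, adjusted p = 5.1e-08). Its difference was 1.40 in progenitor-like nuclei (SE 0.24, adjusted p = 0.000219) and 2.62 in basal-like nuclei (SE 0.49, adjusted p = 0.000659). The region chr2:103238635-103239634, 23.8 kb from the span, moved the other way in all 3, with 11.1 and 8.07 fetal against 26.8 and 32.3 adult CPM. Its log2 difference was -1.68 (SE 0.28, adjusted p = 9.2e-06), and within the lineages it was -1.78 (SE 0.33, adjusted p = 0.000366) and -2.63 (SE 0.52, adjusted p = 0.00129). In the adult it had 60.4 and 48.9 CPM in basal-like and 39.1 and 58.0 in progenitor-like nuclei, but 6.90 and 8.28 in mature luminal-like nuclei. Both basal-like calls were lost without adult replicate 1 (adjusted p = 0.424 for each), at log2 differences of 2.84 and -2.58.

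On the other side of Ehf, chr2:103331287-103332286, 28.0 kb away, had 0 and 2.58 fetal against 25.0 and 21.3 adult CPM, from 0, 16, 137 and 163 reads. The log2 difference was -3.68 (SE 0.44, adjusted p = 1.85e-08), although DESeq2 gave an adjusted p of 0.0631. It was most open in adult mature luminal-like nuclei, at 39.8 and 33.1, against 11.0 and 9.26 in progenitor-like nuclei. Within progenitor-like nuclei it was called as well, at 0 and 3.71 fetal against 13.7 and 11.5 adult CPM (log2 difference -2.36, adjusted p = 0.0327), a call lost with DESeq2 (0.085) and without fetal replicate 1 (0.105). The summed mature luminal markers were also higher in the adult libraries (859 and 894 against 442 and 503 CPM). The Ehf promoter region at the end of the span, chr2:103302773-103303772, had 37.7 and 47.1 fetal against 63.6 and 56.0 adult CPM in promoter regions, without overlap (log2 difference -0.46, SE 0.20, adjusted p = 0.0828). It was open in adult progenitor-like nuclei, at 75.3 and 82.8, and mature luminal-like nuclei, at 67.7 and 71.8, and had 8.23 and 0 in adult basal-like nuclei. Inside the span, chr2:103274467-103275466 had 15.2 and 27.8 fetal against 53.6 and 47.4 adult CPM in progenitor-like nuclei (log2 difference -1.14, SE 0.32, adjusted p = 0.0112), a call lost without fetal replicate 1 (adjusted p = 0.0677). In mature luminal-like nuclei that region had 2.43 and 0.592 CPM.

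Around Elf3, the distal region with the most reads was chr1:135227017-135228016, 25.6 kb from the span. It had 83.0 and 74.8 fetal against 87.4 and 64.2 adult CPM, which overlapped, and was not called over whole libraries (log2 difference 0.06, SE 0.18, adjusted p = 0.839). Within basal-like nuclei it was called as higher in the adult, at 40.1 and 30.2 fetal against 98.6 and 74.2 adult CPM (log2 difference -1.33, SE 0.42, adjusted p = 0.0371). That call was lost with DESeq2 (adjusted p = 0.107) and without fetal replicate 2 (0.262), adult replicate 1 (0.424) or adult replicate 2 (0.0506). By class group the region had 137 and 105 CPM in adult progenitor-like nuclei, 66.1 and 49.5 in basal-like nuclei, 47.1 and 45.3 in mature luminal-like nuclei, 106 and 82.7 in fetal class 9 and 24.5 and 17.2 in fetal class 4. Both progenitor-like libraries of the adult lay above the mature luminal-like libraries at this region, whereas at the Elf3 promoter region these groups overlapped. Closer to the gene, chr1:135265461-135266460, 7.0 kb from the span and nearest to Rnpep, had 1.28 and 1.94 fetal against 20.1 and 15.5 adult CPM (log2 difference -3.34, SE 0.44, adjusted p = 1.0e-07). It had 0 reads in both libraries of the adult basal-like nuclei. The adjacent chr1:135267815-135268814 had 11.1 and 12.1 against 39.4 and 42.3 (log2 difference -1.80, SE 0.25, adjusted p = 3.0e-07), and both regions were also called within progenitor-like nuclei, at -3.78 and -1.07. Higher in the fetus was chr1:135198616-135199615, 54.0 kb away and nearest to Gpr37l1, with 42.4 and 39.7 against 8.75 and 7.73 (log2 difference 2.31, SE 0.26, adjusted p = 3.2e-09).

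Around Spdef, the promoter region over its start site was higher in the adult, at 2.74 and 11.6 fetal against 17.6 and 22.8 adult CPM, from 4, 41, 58 and 97 reads (log2 difference -1.28, SE 0.38, adjusted p = 0.0106). The mature luminal markers moved the same way, as given for the Ehf region above, and their part in this difference and in that of chr17:27780671-27781670 below was not tested. The promoter call was lost with DESeq2 (adjusted p = 0.0672), without fetal replicate 1 (0.171) and without adult replicate 2 (0.124). Upstream, chr17:27745865-27746864, 14.9 kb from the span and nearest to Ilrun, was higher in the fetus in all 3 comparisons. It had 24.8 and 25.0 against 6.57 and 2.62 (log2 difference 2.49, SE 0.34, adjusted p = 3.3e-07), with 2.19 in progenitor-like and 2.66 in basal-like nuclei, where the call was lost without adult replicate 1 (adjusted p = 0.424) at a difference of 2.85. The region chr17:27780671-27781670, 49.7 kb away, had 4.71 and 1.29 against 17.1 and 17.2 (log2 difference -2.82, SE 0.44, adjusted p = 3.0e-06), and in the adult it was open in mature luminal-like nuclei, at 31.6 and 28.1, against 3.01 and 3.90 in progenitor-like nuclei. Inside the span, chr17:27725400-27726399 had 40.1 and 61.8 fetal against 0 and 11.1 adult CPM in basal-like nuclei (log2 difference 2.86, SE 0.70, adjusted p = 0.00672). DESeq2 gave this an adjusted p of 0.314, and without adult replicate 1 it was 0.424. The region lies in the span whose reads were called in the same comparison, so the results are not separate.

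Class differences of the distal regions near each gene were counted by the same 2-fold rule. A region is named below for the nearest of the 4 spans. Spdef was the nearest protein-coding gene to only 10 of its 51 regions and Elf3 to 8 of its 37. The counts for these genes thus describe the neighbourhood, which includes other genes. Around Ehf, 8 of 16 regions were higher and 0 lower in adult progenitor-like than basal-like nuclei, where 17.7% of all distal regions passed as higher and 15.7% as lower. For Elf3 the counts were 7 higher and 1 lower of 19, for Elf5 2 and 0 of 8, and for Spdef 2 and 0 of 11. Against mature luminal-like nuclei, 11 of 22 Ehf regions and 5 of 13 Elf5 regions were higher in progenitor-like nuclei, with 1 and 0 lower, where 16.1% passed as higher and 22.4% as lower. For Elf3 3 were higher and 2 lower of 21, and for Spdef 1 was higher and 5 lower of 25. In mature luminal-like against basal-like nuclei, 15 of 24 Spdef regions were higher and 0 lower, against a background of 31.6% and 18.2%, with 10 and 4 of 21 for Elf3, 4 and 2 of 9 for Ehf, and 3 and 1 of 8 for Elf5. Some regions of a gene overlap the span that was counted, so these counts are not independent of the span levels.

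Between the fetal classes fewer regions differed. In class 9 against class 4, 3 of 12 Ehf regions, 3 of 14 Spdef regions, 1 of 16 Elf3 regions and 1 of 10 Elf5 regions were higher, with 1 Elf5 region lower, where 7.18% of all distal regions passed as higher and 5.03% as lower. In class 5 against class 9, 4 of 18 Elf3 regions were higher and 0 lower, where 2.49% passed as higher and 6.44% as lower. The counts for the other genes were 0 higher and 1 lower of 15 for Ehf, 1 and 1 of 9 for Elf5, and 1 and 0 of 16 for Spdef.

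The authors' deposited chromVAR scores give, for each nucleus, how far accessibility at regions holding a motif departs from expectation, as relative values centred near 0. The Elf5, Ehf and Elf3 columns were highest in adult luminal progenitor-like nuclei. The Elf5 column averaged 1.69 ± 0.14 (SD, n = 2 libraries) there, 0.25 ± 0.09 in fetal class 9, 0.18 ± 0.04 in fetal class 5, -0.70 ± 0.11 in adult mature luminal-like, -0.94 ± 0.03 in adult basal-like and -0.99 ± 0.05 in fetal class 4 nuclei. Ehf gave 1.35, 0.16, 0.18, -0.52, -0.86 and -0.94 in the same order of groups, and Elf3 1.63, 0.31, 0.25, -0.84, -0.76 and -0.90.

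These 3 columns are nearly the same measurement. Over mean scores in 30 combinations of class and library, Pearson's r was 0.99 between Elf5 and Elf3 and 0.99 between Elf5 and Ehf. That of Elf5 with Elf1, an ETS gene that is not restricted to epithelia, was also 0.99. Over the 7846 single nuclei these values were 0.92, 0.92 and 0.76. The columns share nuclei and much of their motif, so a score cannot be assigned to a factor. The Spdef column behaved differently. It was highest in the stromal-like class 6, at 0.63 ± 0.26 in fetal and 0.61 ± 0.01 in adult nuclei, and lowest in fetal class 9, at -0.27 ± 0.003, with 0.18 ± 0.01 in mature luminal-like, 0.01 ± 0.10 in progenitor-like and -0.24 ± 0.09 in basal-like adult nuclei. Over the mean scores it was most like the Ets2 and Gabpa columns, which are identical to each other, at r = 0.93. Over single nuclei that r was only 0.37, and the r with Elk4 was 0.39.

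Over the same 30 combinations of class and library, a gene's span and its motif column were not closely correlated. Pearson's r between a gene's own span and its own motif column was 0.48 for Elf5, 0.23 for Ehf, 0.05 for Elf3 and -0.27 for Spdef, as descriptions over points that share libraries and depth. Class 6 shows the difference for Ehf. It had almost no reads over Ehf but Ehf motif scores of 0.55 ± 0.22 in adult and 0.38 ± 0.16 in fetal nuclei. In the named epithelial groups both Ehf measures fell in nearly the same order. Adult progenitor-like nuclei had 231 CPM and a score of 1.35, and fetal classes 5 and 9 had 161 to 170 CPM and 0.16 to 0.18. Mature luminal-like nuclei had 93.3 CPM and -0.52. Adult basal-like nuclei and fetal class 4 were lowest, at 39.0 and 53.9 CPM and scores of -0.86 and -0.94. Pearson's r without class 6 was not computed.

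**Figure D4:**
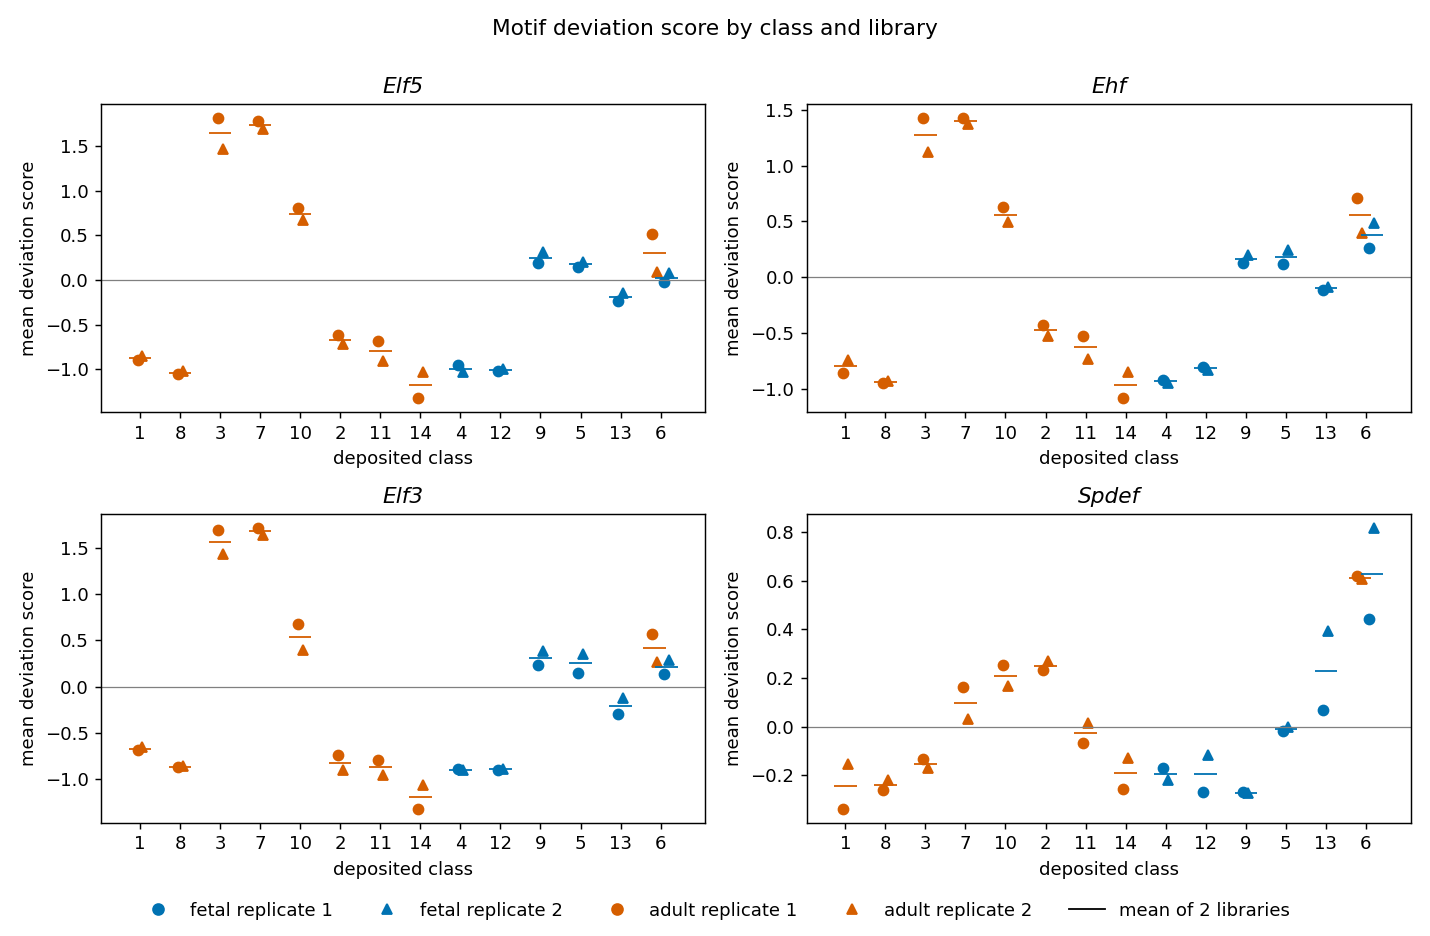
Mean deviation score of the Elf5, Ehf, Elf3 and Spdef motif columns (y axis, relative, centred near 0) by deposited class (x axis, same order of classes as in the plot of gene spans). Points are libraries and lines their means; the first 3 columns peak at 1.28 to 1.74 in adult classes 3 and 7, and the Spdef column peaks in class 6.

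Averaged over whole libraries, the motif scores were compared between stages with limma, which called 67.9% of 427 columns, 35.6% as higher in the adult. Of the 4 columns, Spdef was called, at -0.165 and -0.137 in the fetal and 0.088 and 0.027 in the adult libraries (difference -0.21, SE 0.05, adjusted p = 0.0115). The groups did not overlap, and without adult replicate 1 the adjusted p was 0.0973. The Elf5 column had -0.144 and -0.192 against 0.316 and -0.078, groups that did not overlap (difference -0.29, SE 0.13, adjusted p = 0.0933). The adult replicates thus lay further apart than adult replicate 2 lay from the fetal libraries. Ehf, at -0.26 (adjusted p = 0.0914), and Elf3, at -0.18 (adjusted p = 0.226), were not called either, and all 3 were called without adult replicate 2 (adjusted p = 0.00232 for Elf5, 0.00404 for Ehf and 0.00754 for Elf3). The 16 other ETS motif columns were all called as lower in the fetus, against 35.6% of all columns. Only 15 of them are distinct, since Ets2 and Gabpa are identical, and they overlap in what they measure. They had differences from -0.48 to -0.19 and a median of -0.32.

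Co-accessibility was taken from the authors' Cicero scores, which pool all nuclei and carry no library. Of 6359756 listed pairs of regions 2.63% had a score of at least 0.1, and 571 of 17373 pairs (3.29%) with an end near a gene of the 4 did. With both ends near the same gene, the share was 11.3% for Ehf (72 of 635), 8.94% for Elf3 (59 of 660), 3.53% for Spdef (44 of 1247) and 1.75% for Elf5 (12 of 687). Most regions counted under Elf3 and Spdef were nearest to other genes, as given above. The highest Elf3 scores, 0.448 and 0.444, both had an end at chr1:135358281-135359280, 99.8 kb from the span and nearest to Lmod1. Near pairs score higher in general, so the shares were also taken by distance. Under 50 kb, 15.6% of Ehf, 11.7% of Elf3, 4.70% of Spdef and 2.00% of Elf5 pairs passed, against 4.78% of all pairs. From 50 to 150 kb the shares were 6.76%, 6.53%, 2.74% and 1.61%, against 2.60%. From 150 to 300 kb, 6 of 57 Elf3 pairs (10.5%) and 4 of 137 Spdef pairs (2.92%) passed, against 2.13%, and 0 of 6 Ehf and 0 of 26 Elf5 pairs.

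**Figure D5:**
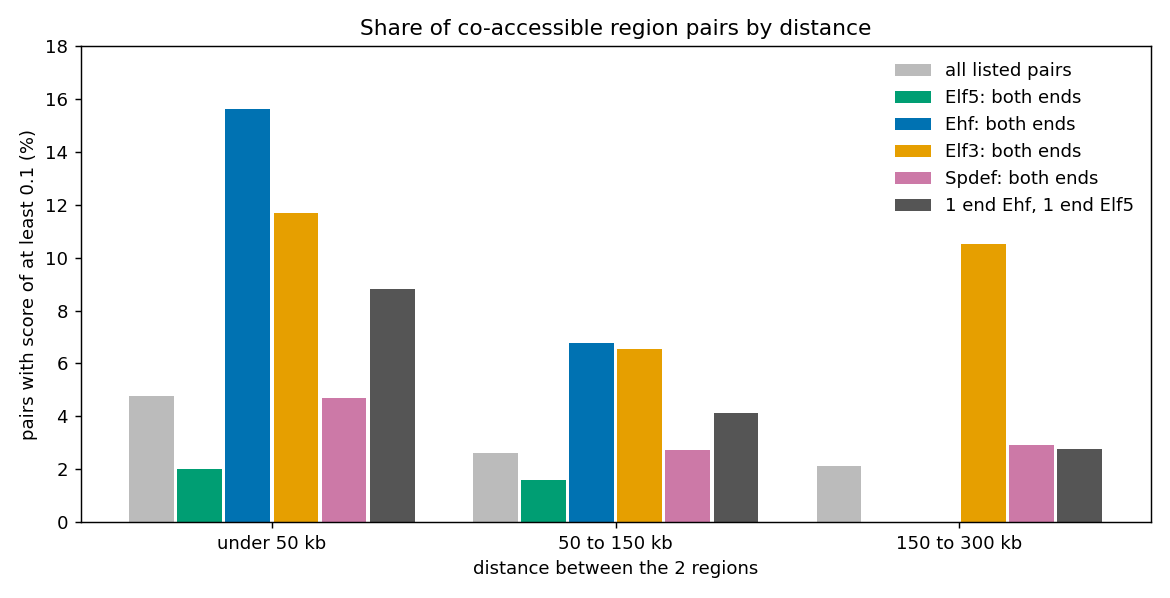
Percentage of listed region pairs with a co-accessibility score of at least 0.1 (y axis) by distance between the regions (x axis) for all listed pairs, pairs with both ends near the same gene, and pairs between Ehf and Elf5. Ehf and Elf3 stand above all pairs under 150 kb and Elf5 below; the missing bars from 150 to 300 kb are 0 of 6 pairs for Ehf and 0 of 26 for Elf5.

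Links also ran between the neighbouring genes Ehf and Elf5. Of 1307 listed pairs with an end near each gene, 45 (3.44%) passed, with 21 of 509 (4.13%) from 50 to 150 kb and 21 of 760 (2.76%) from 150 to 300 kb, against 2.60% and 2.13% of all pairs at these distances. From 50 to 150 kb, Ehf regions passed more often with any partner, in 75 of 958 pairs (7.83%), and Elf5 regions in 32 of 1304 (2.45%). From 150 to 300 kb these shares were 2.26% and 2.08%. Both sets include the pairs between the genes. The highest such score, 0.389, joined chr2:103274467-103275466 inside Ehf to chr2:103389800-103390799 near Elf5, 115 kb apart. The region over the downstream Elf5 start site passed with 8 of its 143 listed pairs, and its highest score, 0.2499, was with the Ehf promoter region 121 kb away. The region next to the upstream Elf5 start passed with 0 of 142. The Elf3 promoter region passed with 6 of 133. Its highest scores were nearly equal, 0.2205 with chr1:135227017-135228016, the Elf3 region with the most reads, and 0.2202 with chr1:135265461-135266460, nearest to Rnpep. The Spdef promoter region passed with 13 of 112, with a highest score of 0.328 to a region 331 kb away nearest to Grm4. A score over pooled nuclei is high where regions open in the same classes, and it was not computed within a class or stage here.

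The genes whose span pattern over the 30 class and library sums was most like that of each gene were taken from 16706 genes, as a description over sums that share depth and nuclei. For Ehf they were Krt8 (r = 0.94), which encodes a keratin of luminal cells, Tnnt2 (0.93), Spint1 (0.91), Epcam (0.91), the surface antigen used in the sort, and Wwc1 (0.91). For Elf5 they were Rasgrp3 (0.91), Tma7 (0.86), Ocrl (0.86), Slc28a3 (0.85) and Zfp553 (0.85). For Elf3 they were Kat8 (0.90), Map3k9 (0.86), Atp13a4 (0.86), Wnt7b (0.84) and Prelid1 (0.83), and for Spdef Kat8 (0.88), Evpl (0.85), Clec11a (0.83), Pip5k1b (0.83) and Pick1 (0.82). Among the 4 genes, Elf3 and Spdef (0.78) and Elf5 and Ehf (0.71) were most alike, and Elf5 and Elf3 (0.29) least. Spdef was nearly as like Pacsin1 (0.77), whose counted window overlaps its own, and its r with Ilrun was 0.52. The r of Elf3 with its neighbour Rnpep was 0.64, and that of Elf5 with Cat was -0.14. Class 6 had 0 reads over both Elf3 and Spdef in adult replicate 2, and 0 over both Elf5 and Ehf in fetal replicate 1. Sums with 0 reads lie at the floor of the log2 scale and can weigh heavily in r. This holds for the most similar genes as well, and r without those sums was not computed.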

How the data were processed

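Single-nucleus ATAC-seq reads of 4 libraries, 2 per stage, were analysed from the deposited files. Bowtie2, MACS2, bedtools and the build mm10 are named in the submitters' processing notes, while their versions and roles, the clustering, the motif collection and the removal of duplicates are not given in the sources used here. The deposited read lists give positions and a barcode per read (neither shifted nor filtered here), and the deposited count of reads per nucleus equalled the listed reads in all 7846 nuclei. The authors' deposited motif score is a chromVAR deviation per nucleus, the deposited co-accessibility score is from Cicero over all nuclei, and the deposited gene accessibility is a Cicero signal per nucleus whose columns name no library, so it was used as 1 pooled table.

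Reads of kept nuclei were counted where they overlapped a gene span plus 2 kb, or a listed region, with a minimum of 1 shared base, and added up for each library or class group of a library. Sums were tested with edgeR 4.0.16 (quasi-likelihood, TMM factors, mean of at least 10 reads, Benjamini-Hochberg over all features tested, threshold 0.05) in R 4.3.3. The SE of an edgeR log2 difference was derived as its size over the square root of F, and intervals are 1.96 SE. TMM factors lay between 0.970 and 1.04. CPM values in a test are TMM-scaled to tested features, and levels by class are CPM over all features of that kind, so the scales differ slightly. Library means of motif scores were tested with limma 3.58.1. DESeq2 1.42.0, other windows, filters and scalings, and leaving out each library were alternatives. Counting used Python 3.11.15. Each test was checked on simulated data. No doublet caller was run.

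Named regions were, for each gene, the 3 with the most reads and up to 3 called in each direction with a mean of at least 50 reads. The regions that showed most were described in the text. The genes, lists and tests were chosen with earlier results of these data known. The p-values of the stage tests measure the spread between 2 libraries per stage, with variances moderated over all features. Those of the stage by lineage test, with library as a block, measure how the difference between lineages varies between the 2 libraries of a stage. The labels name no batch, and the design gives no means to separate one that follows stage: the 2 cannot be told apart. The number of wells for the Tn5 reaction followed stage, at 16 for each fetal and 32 for each adult library, and cannot be told apart from it either. The labels do not say whether equal replicate numbers mark a shared day or batch, so the stage tests have no replicate block.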

Additional observations from a re-analysis of the deposited data

Results flagged for a closer look

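The difference between the stages differed between the lineages for 2 of the 4 genes, by an edgeR interaction test added after the data had been seen and called for 6.07% of all genes, 2.43% in the direction given here. For Ehf the fetal minus adult log2 difference in luminal progenitor-like nuclei minus that in basal-like nuclei was -0.94 (95% interval -1.43 to -0.45). For Elf5 it was -1.20 (95% interval -1.89 to -0.50). Spdef had an estimate close to that of Ehf, -0.93 (95% interval -1.75 to -0.11), and was not called (adjusted p = 0.204). In progenitor-like nuclei both libraries of the fetus lay below both of the adult for Ehf and Elf5, and in basal-like nuclei both lay above. Each call was lost when some single libraries were left out, and that of Elf5 also without the library block (adjusted p = 0.0777), as given with the test. The cause was not tested. The classes compared are clusters of the same nuclei and nearly of 1 stage each.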

How the results depend on the processing

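Counts of called features moved with the setting, and each value here is a count under 1 change. For gene spans (4172 called) the count was 2219 over spans that overlap no other, and 1812 to 4459 with a library left out. For promoter regions (3992) it was 2622 with DESeq2 and 2514 to 3057 with a library left out. For distal regions (43423) it was 24872 with DESeq2 and 15301 at a mean of at least 50 reads. Within progenitor-like nuclei, gene spans (2743) gave 1468 with DESeq2 and 1400 to 2477 with a library left out, and distal regions (11066) gave 6866 with DESeq2 and 2391 at a mean of at least 50 reads. Within basal-like nuclei, gene spans (1014) gave 322 with DESeq2 and 547 to 867 with a library left out. Distal regions there (3008) gave 1459 with DESeq2, 179 at a mean of at least 50 reads and 0 to 3876 with a library left out. The test of stage by lineage (1036) gave 407 to 710 with a library left out. Within 50 kb there were 107 nearby regions, and 1236 and 109 pairs near the genes passed a co-accessibility of 0.05 and 0.25.

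Some uncalled differences changed sign. The stage difference of Ehf (-0.02) was -0.17 to 0.093 with a library left out and 0.016 without flanks. That of Spdef (-0.02) was -0.20 to 0.15 and, with 10 kb flanks, 0.25. Around Elf3, leaving out a library gave -0.044 to 0.28 for the region at 135313175 and -0.27 to 0.21 for that at 135227017, which gave -0.095 with no filter. The Spdef region at 27820238 gave -0.14 to 0.27, and -0.081 in nuclei at or above the median depth. The Elf5 region at 103423445 gave -0.028 to 0.58. The Elf3 motif difference was -0.36 to 0.0034 with a library left out and 0.041 from medians. The Ehf call within progenitor-like nuclei held under every alternative run. The basal-like Spdef span rests on 16 to 83 reads per library.

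Nothing in the labels says that equal replicate numbers mark a shared day or batch: deviations of same-numbered libraries correlated at r = 0.27 over gene spans, 0.04 over distal and 0.06 over promoter regions, with 2 pairs. With the replicate block the counts were 6424 gene spans, 4294 promoter and 40678 distal regions, 3814 and 1440 gene spans and 10848 and 2471 distal regions within progenitor-like and basal-like nuclei, and 313 motif columns. Without the library block, the test of stage by lineage called 534 genes, and Elf5 was lost (adjusted p = 0.0777).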

Other observations

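In 2 classes that carried markers of more than 1 lineage, the class means over Ehf and Spdef lay between those of the adult groups whose markers were raised, and those over Elf3 did not. Over Elf5 this held in both libraries of class 10 but in neither library of class 14. Adult class 10 had 5 of 5 luminal, 5 of 6 luminal progenitor and 3 of 7 mature luminal markers raised, and had 56.8 ± 6.1 (SD, n = 2 libraries) CPM over Elf5, 145 ± 45.0 over Ehf and 40.9 ± 12.2 over Spdef. Its Elf3 level, 73.6 ± 12.7, was above the means of the progenitor-like (60.4) and mature luminal-like (60.2) groups. Adult class 14 had 6 of 8 basal and 6 of 7 mature luminal markers raised, and had 21.4 ± 30.2 over Elf5, 78.0 ± 3.8 over Ehf and 18.3 ± 2.5 over Spdef. Its Elf3 level, 36.7 ± 4.9, was below the means of the basal-like (45.1) and mature luminal-like groups. The 82 and 61 nuclei of class 10 held 770948 and 677586 reads, and the 25 and 59 nuclei of class 14 held 262384 and 585780 reads. Whether a barcode of these classes holds more than 1 nucleus was not tested. The Elf5 mean of class 14 comes from libraries at 0 and 42.7, each outside the means of the basal-like (17.6) and mature luminal-like (32.3) groups, so its place between them does not hold in either library. Mean motif scores of class 10 lay between its groups for Elf5 (0.74), Ehf (0.56) and Elf3 (0.54) but not for Spdef (0.21). Those of class 14 lay below both of its groups for Elf5 (-1.18), Ehf (-0.97) and Elf3 (-1.20), and between them for Spdef (-0.19).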
